A study of Homo sapiens with 4 samples.

Results

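The 8 chemokine genes described here were CCL20, CCL28, CXCL1, CXCL2, CXCL3, CXCL5, CXCL8 and CXCL16, found by symbol among the 60658 gene identifiers of the series. They were selected on measured values: CCL20 had been seen to be lower after TMEM161A knockdown in the line LIM1215 and not in the line HT29, and 7 further chemokines that epithelial cells can make were set beside it. The values of that knockdown contrast are therefore given as a description. The series holds 4 RNA-seq libraries from HT29 and LIM1215, which are established human colorectal cancer cell lines. In each line 1 library came from cells given a negative control siRNA (titled NC) and 1 from cells given an siRNA against TMEM161A (titled si2). An siRNA is a short duplex RNA that directs the cleavage of a matching mRNA, and TMEM161A encodes a transmembrane protein. No library has a replicate, so an effect within a line, or a difference between the lines, could not be tested, and an interval below covers counting error only. All cells were transfected cultures of 1 line each. The labels give neither the siRNA sequence nor the time after transfection, and no second siRNA was analysed here.

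Chemokines are small secreted proteins that draw leukocytes along a gradient by binding G protein-coupled receptors. CCL20 is the ligand of CCR6 and attracts CCR6-bearing T cells, B cells and dendritic cells to the mucosa. CXCL1, CXCL2, CXCL3, CXCL5 and CXCL8 belong to the neutrophil-attracting group that signals through CXCR2, and CXCL8 also binds CXCR1. CCL28 binds CCR10 and CCR3 and is known for the homing of IgA-producing plasma cells to mucosal surfaces. CXCL16 is made as a membrane-bound protein, is released by the sheddases ADAM10 and ADAM17, and binds CXCR6. In gut epithelium several of these genes are induced through NF-kB, and their mRNAs are commonly short-lived because of AU-rich stretches.

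The sequences of the promoters are shown here because 5 of the genes lie in a single cluster and share letters just before their start sites. In GENCODE release 44 on GRCh38, CXCL8 lies on the plus strand of chromosome 4 from 73740519 to 73743716, and CXCL1 on the plus strand from 73869393 to 73871308. On the minus strand of the same chromosome follow CXCL5 (73995642 to 73998677), CXCL3 (74036589 to 74038807) and CXCL2 (74097040 to 74099196). CCL20 lies on the plus strand of chromosome 2 (227805739 to 227817564), CCL28 on the minus strand of chromosome 5 (43376645 to 43412391) and CXCL16 on the minus strand of chromosome 17 (4733533 to 4739928). The RefSeq table on GRCh38.p14 matched 7 of the 8 genes. Each line below gives the 80 bases from 110 to 31 bases before the RefSeq start site, 5′ to 3′ on the gene's strand, for the 6 genes with a match. Capitals mark letters that match a kB motif, as defined after the sequences. Some GENCODE transcripts start farther upstream than the RefSeq start.

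CCL20 (chr2:227813732-227813811, plus strand): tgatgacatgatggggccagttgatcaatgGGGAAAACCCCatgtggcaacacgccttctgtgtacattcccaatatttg
CXCL8 (chr4:73740459-73740538, plus strand): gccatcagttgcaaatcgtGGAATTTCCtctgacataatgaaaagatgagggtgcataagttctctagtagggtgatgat
CXCL1 (chr4:73869283-73869362, plus strand): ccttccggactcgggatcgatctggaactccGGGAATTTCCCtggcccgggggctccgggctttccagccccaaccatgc
CXCL2 (chr4:74099226-74099305, minus strand): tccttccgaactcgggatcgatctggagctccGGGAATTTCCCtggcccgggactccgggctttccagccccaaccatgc
CXCL3 (chr4:74038720-74038799, minus strand): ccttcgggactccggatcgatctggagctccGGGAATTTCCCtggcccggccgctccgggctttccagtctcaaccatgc
CXCL5 (chr4:73998708-73998787, minus strand): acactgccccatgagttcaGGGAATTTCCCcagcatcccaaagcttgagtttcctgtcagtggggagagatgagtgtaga

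The letters GGAATTTCC, searched on both strands, occurred in the promoters of the 5 chromosome 4 genes and in 0.461% of the 35116 RefSeq promoters of the same length. In CXCL1 and CXCL3 they began 78 bases before the start site, in CXCL2 77 bases, in CXCL5 90 bases and in CXCL8 91 bases. CCL20 held other letters at this place, GGGAAAACC beginning 80 bases before the start, which occurred in 0.439% of the promoters. The NF-kB consensus motif, which overlaps these matches, was found in 5 genes (CCL20, CXCL1, CXCL2, CXCL3 and CXCL5) and in 11.3% of all promoters. The letters TGANTCA, the AP-1 motif, were found in CXCL8, 137 bases before the start, and in 7.71% of all promoters. The motifs were chosen after these promoters had been read, and a match describes letters, not bound protein.

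The 3′ untranslated regions were compared in the same way, because AU-rich stretches distinguish short-lived mRNAs. The pentamer ATTTA occurred 10 times in CXCL2 (13.97 per kilobase), 7 times in CXCL3 (10.4), 6 times in CXCL1 (7.77), 9 times in CXCL8 (7.19), 3 times in CCL20 (6.34), 11 times in CXCL5 (5.51) and 7 times in CCL28 (2.62). CXCL16 had 1 copy (1.03 per kilobase). The median of 12101 expressed coding genes was 1.67 per kilobase, and 0.380% of them reached the density of CXCL2, 2.84% that of CXCL8 and 4.36% that of CCL20. The 30 bases with the most copies are printed for 4 genes, with each copy in capitals (canonical GENCODE transcripts, 5′ to 3′).

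CXCL2: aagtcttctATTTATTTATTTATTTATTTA
CXCL8: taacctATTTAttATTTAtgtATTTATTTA
CXCL1: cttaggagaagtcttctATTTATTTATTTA
CCL20: ttaaagttaaactgtattttatgttATTTA

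Both CXCL2 and CXCL1 carry pentamers chained end to end, CXCL8 carries 4 within 30 bases, and CCL20 has none that lie close together. CXCL1, CXCL2 and CXCL3 are also close relatives that share stretches of sequence. Of the 50-base windows of the CXCL2 transcript, 10.1% occurred without a mismatch in another of the 8 transcripts, against 5.33% for CXCL1, 5.26% for CXCL3 and 0 for the other 5. Of the CXCL1 windows, 0.533% occurred in CXCL3. How the authors assigned fragments from such shared stretches was not stated, so the split among CXCL1, CXCL2 and CXCL3 is uncertain. Their sum is given as well, and it too can depend on how shared fragments were counted.

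The libraries were checked before the genes were compared. The unit of the deposited values is FPKM, fragments per kilobase of gene scaled to the mapped fragments of the library. The steps between low values put 1 FPKM at 18.1 to 21.54 fragments per kilobase. The targeted TMEM161A stood at 42.6 (control) and 4.64 (knockdown) in HT29 and at 39.1 and 7.61 in LIM1215, so the siRNA labels and the targeted gene go together. The line of each library was taken from its title, and the identity of the cultures was not tested. Of 12 colorectal epithelial markers, all were above 0 in both LIM1215 libraries. HT29 held keratins and EPCAM (KRT8 at 1467 and EPCAM at 168 in the control), but in its control library CDX1 was listed at 0, and VIL1 (0.0397), LGALS4 (0.607), CDH17 (0.243), GPA33 (0.0200) and KRT20 (0.306) were below an FPKM of 1. The leukocyte genes PTPRC and CD3E were listed at 0 in all 4 libraries. The 9 leukocyte markers summed to 8.40 to 11.5 in HT29 and 59.9 to 74.7 in LIM1215, most of it CD68. Fibroblast markers summed to 16.3 to 18.2 in HT29 and 6.03 to 9.25 in LIM1215, mainly COL1A1, and endothelial markers to 0.419 to 0.601 over all libraries.

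CCL20 was high in the LIM1215 control library and low in the other 3. HT29 given control siRNA stood at an FPKM of 0.943 (95% counting interval 0.516 to 1.66), and HT29 given TMEM161A siRNA at 1.59 (1.01 to 2.45). LIM1215 given control siRNA stood at 22.8 (20.1 to 25.8), and LIM1215 given TMEM161A siRNA at 2.19 (1.45 to 3.16). The LIM1215 control thus stood alone, and the intervals of neighbours among the 3 lower libraries overlapped. In LIM1215 the knockdown level was 9.59% of control (interval 6.25% to 14.2%), on an estimated 28.0 against 261 fragments. With 1 added to each FPKM, the log2 ratio was −2.90, the lowest of the 12295 protein-coding genes compared by that measure. CCL20 was chosen on this contrast, so the rank is a description and nothing is read from it. Without the added 1, COX6B2 stood lower, at 6.32% of control. In HT29 the CCL20 level was 169% of control (log2 ratio 0.42). Its interval ran from 80.4% to 361% on about 12.7 and 21.7 fragments, so a direction was not detectable at this depth. The difference of these log2 ratios, LIM1215 minus HT29, was −3.32 and could not be tested with 1 library per group.

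CCL28, the other CC chemokine, was low throughout. In HT29 it stood at an FPKM of 0.0963 with control siRNA and 0.0882 with TMEM161A siRNA, against 1.68 and 0.698 in LIM1215. As with CCL20, the LIM1215 control was the highest of the 4 libraries. The LIM1215 knockdown level was 41.6% of control (interval 27.7% to 60.2%), while the HT29 values rested on about 6 fragments each. Because the pseudocount weighs heavily at this level, the log2 ratio in LIM1215 was only −0.66, and its mean FPKM of 0.640 left CCL28 outside the genes compared by fold.

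**Figure D1:**
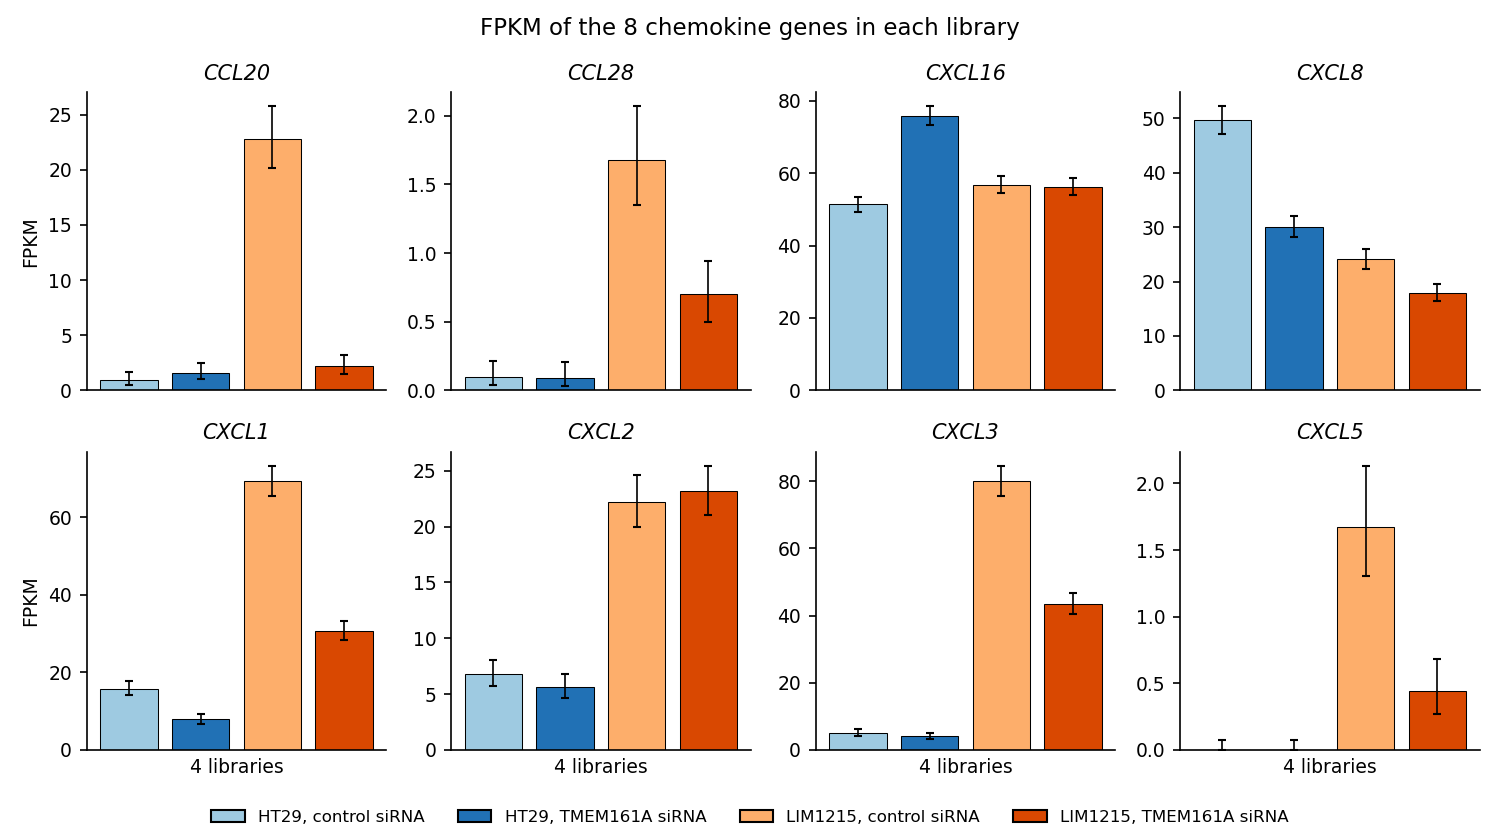
FPKM (vertical axes, linear, each with its own scale) of the 8 chemokine genes in the 4 libraries; bars are single libraries and error bars are 95% counting intervals from estimated fragments. CCL20 stands at 22.8 in the LIM1215 control and at 2.19 or less in the other libraries, whereas CXCL16 lies between 51.4 and 76.0 in all 4.

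Among the neutrophil-attracting genes, CXCL1 was lower in the knockdown library of both lines. In HT29 it stood at an FPKM of 15.8 with control siRNA and 7.96 with TMEM161A siRNA, against 69.3 and 30.7 in LIM1215. Both HT29 libraries lay below both LIM1215 libraries. The library given TMEM161A siRNA held 50.4% of the control level in HT29 (interval 41.5% to 60.9%, log2 ratio −0.91) and 44.3% in LIM1215 (40.1% to 48.8%, −1.15).

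CXCL3, a close relative of CXCL1, stood in HT29 at an FPKM of 5.12 with control siRNA and 4.10 with TMEM161A siRNA, against 80.1 and 43.6 in LIM1215. It was the highest of the 8 genes in the LIM1215 control and only the 5th in the HT29 control. In LIM1215 the knockdown level was 54.4% of control (49.7% to 59.6%, log2 ratio −0.86). In HT29 it was 80.1%, with an interval that included no difference (58.4% to 109%).

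CXCL2, the third of these relatives, stood apart from both in the LIM1215 knockdown comparison. In HT29 its knockdown level was 83.2% of control, near the 80.1% of CXCL3. CXCL2 had an FPKM of 6.80 with control siRNA and 5.66 with TMEM161A siRNA in HT29, against 22.2 and 23.2 in LIM1215. In neither line did the counting interval exclude 100% of control: it spanned 63.8% to 108% (HT29) and 90.4% to 120% (LIM1215). The sum of CXCL1, CXCL2 and CXCL3, given because the split among them is uncertain, was 27.7 with control and 17.7 with TMEM161A siRNA in HT29 (63.9% of control), against 172 and 97.4 in LIM1215 (56.8%). The share of CXCL1 in that sum was 57.0% (control) and 44.9% (knockdown) for HT29, against 40.4% and 31.5% for LIM1215.

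CXCL5 was listed at 0 in both HT29 libraries. LIM1215 held it at 1.67 with control siRNA and 0.443 with TMEM161A siRNA, 26.4% of control (15.1% to 43.8%), on an estimated 67.7 fragments in the control. Of the other genes in the chromosome 4 cluster, which were listed as family ligands, PPBP followed the same layout with 0 in both HT29 libraries and 1.40 and 0.769 in LIM1215. CXCL6, PF4 and PF4V1 were listed at 0 in all 4 libraries.

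CXCL8, the most studied neutrophil attractant, was the only compared member with a lower deposited control level in LIM1215 than in HT29. In HT29 it stood at an FPKM of 49.7 with control siRNA and 30.1 with TMEM161A siRNA, against 24.1 and 17.9 in LIM1215. Each knockdown library lay below its control, at 60.6% in HT29 (55.8% to 65.8%, log2 ratio −0.71) and 74.2% in LIM1215 (66.0% to 83.5%, −0.41). These values rested on the most fragments among the neutrophil-attracting genes in HT29, 1519 and 933.

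CXCL16, the membrane-bound member, had the smallest ratio of highest to lowest FPKM among members above 0 in every library. In HT29 it stood at an FPKM of 51.4 with control siRNA and 76.0 with TMEM161A siRNA, against 56.8 and 56.3 in LIM1215. The HT29 knockdown library stood above the other 3. Its level was 148% of control in HT29 (140% to 156%, log2 ratio 0.55) and 99.0% in LIM1215 (93.4% to 105%, −0.01). CXCL16 overlaps MED11 and ZMYND15 on the opposite strand, and the sources do not say whether the authors counted by strand. MED11 had an FPKM of 14.9 and 23.6 in HT29 and of 25.2 and 35.0 in LIM1215, control and knockdown respectively, and its part in the CXCL16 values was not tested.

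**Figure D2:**
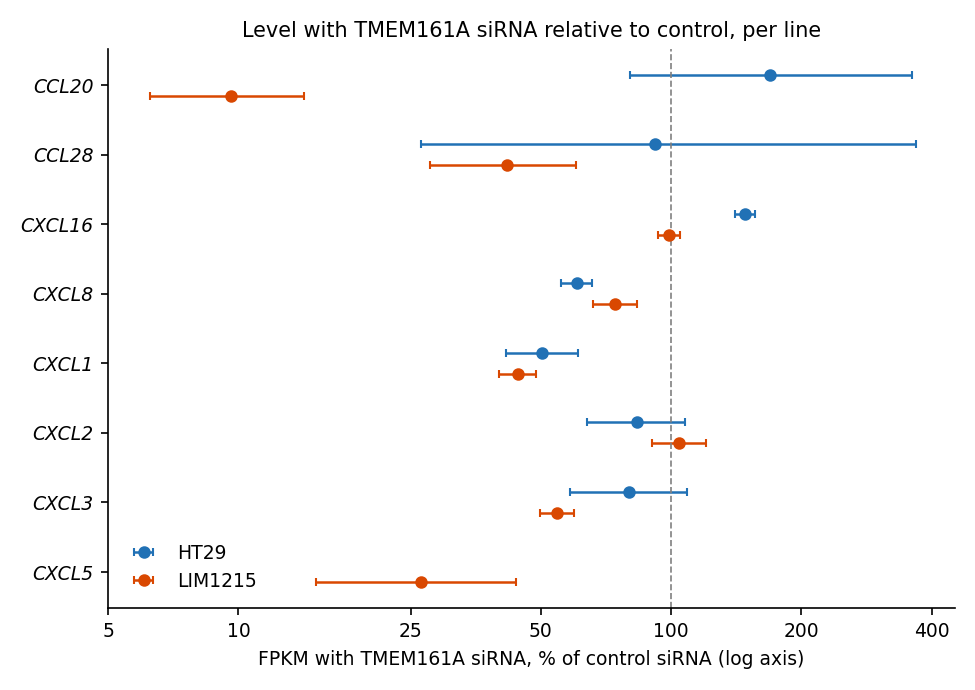
FPKM in the TMEM161A siRNA library as a percent of the control siRNA library (horizontal log axis) for each gene, HT29 in blue and LIM1215 in orange, with 95% counting intervals of the ratio; the dashed line is 100%. In LIM1215 the values run from 9.59% for CCL20 to 104% for CXCL2. CXCL5 has no HT29 value because it was listed at 0 there.

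The knockdown comparison was then read against all genes. Of the 14803 genes with a mean FPKM of at least 1 over the 4 libraries, 6 were members, and a gene was counted as higher or lower at a 2-fold ratio of FPKM plus 1. In LIM1215, CCL20 and CXCL1 fell past 2-fold, 2 of 6, where 1.78% of all genes did, and no member rose, against 1.68% of all genes. In HT29 no member rose or fell past 2-fold, against 1.85% and 1.95% of all genes. Since the LIM1215 contrast chose the members, nothing is read from its count. The members had a median log2 ratio of −0.25 (HT29) and −0.64 (LIM1215), beside 0.04 and 0.02 over all genes compared. Nothing is read from these medians either, because values of the knockdown contrast chose the members.

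Counting intervals were also set against 100% of control. In LIM1215, the interval lay below 100% of control for CCL20, CCL28, CXCL1, CXCL3, CXCL5 and CXCL8 and included it for CXCL2 and CXCL16. In HT29 it lay below 100% for CXCL1 and CXCL8, above it for CXCL16, and included it for CCL20, CCL28, CXCL2 and CXCL3. Such intervals were common: over all genes compared with fragments in both libraries, 28.5% lay below and 33.4% above 100% in LIM1215, and 28.3% below and 37.3% above in HT29. Of the 6 members among those genes, 4 lay below in LIM1215, and 2 lay below and 1 above in HT29. Spread between cultures was not measured, so these intervals do not show an effect of the siRNA.

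A fit over both lines, with the line as a block, left 1 residual degree of freedom and was made with limma for all genes. That residual is the difference of the siRNA response between the lines, and spread between cultures cannot be told apart from it. The fit called 127 genes higher and 161 lower at an adjusted p of 0.05, and TMEM161A had a mean log2 ratio of −2.59 (limma adjusted p = 0.003327), lower in 2 of 2 lines. The members were chosen on the contrast it tests, so no p is given for them. The 8 genes together made 129.8 FPKM with control and 125 with TMEM161A siRNA in HT29 (96.6%), against 279 and 175 in LIM1215 (62.8%). In LIM1215 the share of CCL20 in that sum was 8.18% under control siRNA and 1.25% under TMEM161A siRNA. In bulk RNA, fewer cells with a transcript and less transcript per cell cannot be told apart.

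**Figure D3:**
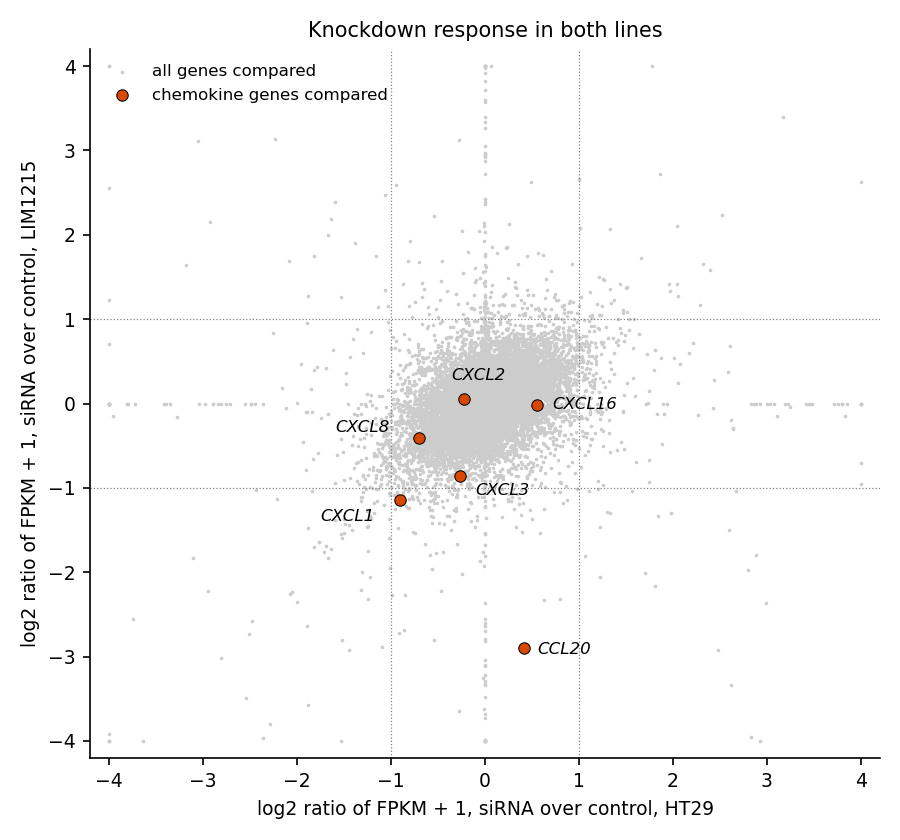
Log2 ratio of FPKM plus 1, TMEM161A siRNA over control, in HT29 (horizontal) and LIM1215 (vertical); grey points are the 14803 genes compared, drawn at the edge when beyond 4, orange points the 6 chemokine genes among them, and dotted lines mark 2-fold. CCL20 (0.42 and −2.90) lies far below the other 5 chemokine genes, which run from −1.15 to 0.06 on the vertical axis.

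The control libraries were compared to describe the resting level of each gene in the lines. LIM1215 held more CCL20, CXCL3, CXCL1 and CXCL2 than HT29, with 24.2-fold more CCL20 (interval 13.5 to 44.8), 15.6-fold more CXCL3 (12.7 to 19.5), 4.38-fold more CXCL1 (3.87 to 4.96) and 3.27-fold more CXCL2 (2.67 to 4.01). These 4 of 6 compared members were higher past 2-fold, where 12.0% of all genes were. CCL20 was chosen on a contrast that uses the same LIM1215 control library, so nothing is read from this count. CXCL8 was lower, at 48.5% of its HT29 level (44.1% to 53.3%), 1 of 6 members against 7.42% of all genes. With a pseudocount of 5 the log2 ratio of CXCL8 was −0.91 and no longer past 2-fold. CXCL16 had a log2 ratio of 0.14, which was instead −0.04 after scaling the libraries to equal summed FPKM and −0.01 with upper quartile scaling. Outside the filter, CCL28 was 17.4-fold higher in LIM1215 (7.69 to 48.7), and CXCL5 was listed at 0 in HT29.

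The lines therefore ordered the genes differently. In the HT29 control the order was CXCL16, CXCL8, CXCL1, CXCL2, CXCL3, CCL20, CCL28 and CXCL5, where the counting intervals of CXCL16 and CXCL8, of CXCL2 and CXCL3, and of CCL28 and CXCL5 overlapped. In the LIM1215 control it was CXCL3, CXCL1, CXCL16, CXCL8, CCL20, CXCL2, CCL28 and CXCL5, where CXCL8, CCL20 and CXCL2 lay between 22.2 and 24.1 with overlapping intervals, as did CCL28 and CXCL5. The epithelial markers moved with this comparison, 11 of 12 being higher past 2-fold in the LIM1215 control, against 12.0% of all genes. KRT19 was the exception (log2 ratio −0.14). CDX1, VIL1, CDH17, LGALS4, GPA33 and KRT20 were below an FPKM of 1 in HT29, so they passed the filter through LIM1215 alone. The part of the markers in the chemokine levels was not tested.

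The other chemokine ligands were nearly absent from HT29. Of 36 family ligands besides the members, 8 were above 0 in HT29 and 12 in LIM1215 under control siRNA, with summed FPKM of 1.86 and 34.3, and 2 passed the filter. CCL26, a CCR3 ligand that attracts eosinophils, had an FPKM of 0.290 and 0.286 in HT29 and of 23.8 and 30.9 in LIM1215, control and knockdown respectively. Its level in the LIM1215 control was thus near that of CCL20, but it did not follow CCL20 in the knockdown library (log2 ratio 0.36). CCL15 was listed at 0 in both HT29 libraries and had an FPKM of 3.54 and 3.13 in LIM1215, and it overlaps the read-through gene CCL15-CCL14.

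The receptors of the 8 chemokines were at or near 0. CCR6, the receptor of CCL20, was listed at 0 in all 4 libraries, and CCR3 at 0 in all but the HT29 knockdown library (0.0258). CXCR2 ranged from 0.0206 to 0.331, CXCR1 from 0 to 0.0205, and CXCR6, the CXCL16 receptor, from 0.0473 to 0.239. CCR10, a CCL28 receptor, had the highest level of these, between 0.373 and 0.760. Over all 22 chemokine receptors 3 passed the filter. ACKR3, a scavenging receptor, had an FPKM of 0.0920 and 0 in HT29 and of 18.5 and 15.5 in LIM1215. CXCR4, the CXCL12 receptor, had 0.732 and 0.657 in HT29 and 3.05 and 3.52 in LIM1215. CXCR5 rose past 2-fold in LIM1215, from 0.284 to 2.01 (log2 ratio 1.23), with 1.13 and 2.66 in HT29 (0.78). It overlaps BCL9L on the opposite strand, which had an FPKM of 59.7 to 105.

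**Figure D4:**
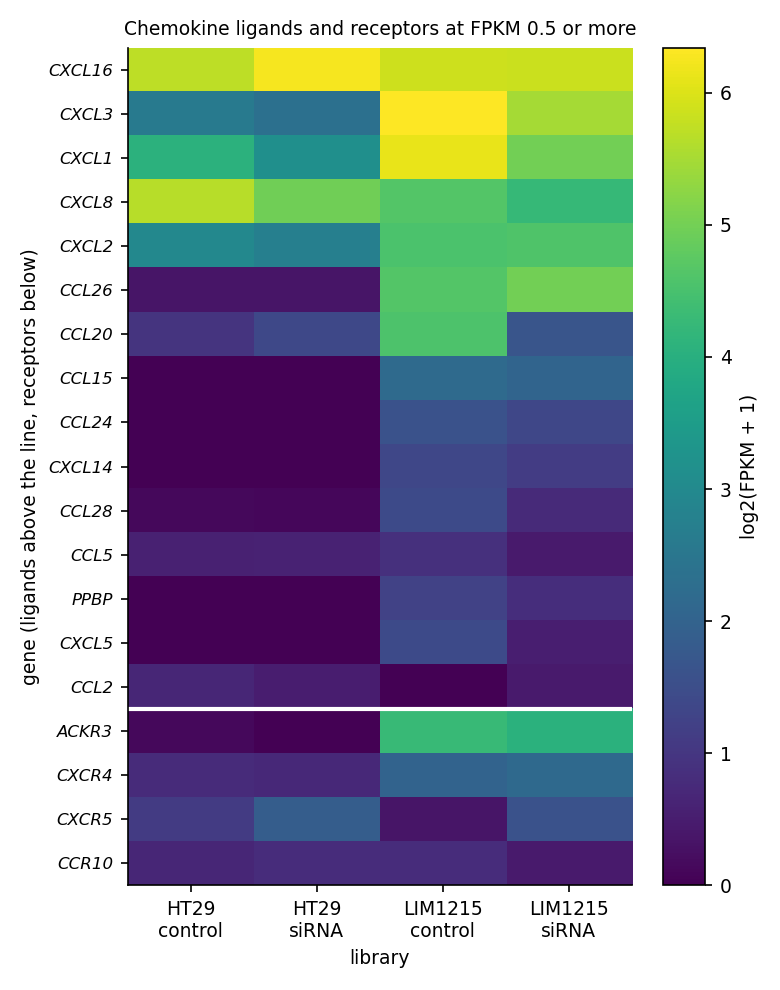
Level of every chemokine ligand (above the white line) and receptor (below it) with an FPKM of at least 0.5 in any library, as log2(FPKM + 1) by colour, one column per library. The LIM1215 columns are filled for CCL26, CCL15, ACKR3 and others at or near 0 in HT29, and CCL20 is bright in the LIM1215 control column alone.

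The genes that lead to chemokine induction were examined as lists. Of 20 receptors and adaptors of the IL-1, IL-17, TNF and Toll-like pathways, 19 were compared. None passed 2-fold of FPKM plus 1 in either knockdown comparison. IL1R1, named after its values were seen, had an FPKM of 2.43 and 3.24 in HT29 and of 1.26 and 0.568 in LIM1215, control and knockdown. Without the added 1, IL1R1 passed 2-fold in LIM1215. In LIM1215, 17 of the 19 had a log2 ratio below 0, and in HT29 9 of 19, with medians of −0.25 and 0.01. Over all 14803 genes compared, 6870 were below 0 in LIM1215 and 6566 in HT29. With libraries scaled to equal summed FPKM the HT29 median was instead −0.06. LTBR, the lymphotoxin receptor, stood at log2 ratios of 0.13 (HT29) and 0.17 (LIM1215), TNFRSF1A, the main TNF receptor, of 0.23 and −0.11, and the IL-1 pathway kinase IRAK1 of −0.07 and −0.36.

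All 9 NF-kB subunits and kinases were compared, and none passed 2-fold of FPKM plus 1. IKBKG, named after its values were seen, had an FPKM of 3.61 and 8.17 in HT29, control and knockdown. In LIM1215 it had 5.18 and 6.95 (log2 ratios 0.99 and 0.36). Without the added 1, IKBKG passed 2-fold in HT29. The median log2 ratios of the list were 0.15 in HT29 and 0.17 in LIM1215. RELA, the main activating subunit, had an FPKM of 49.8 and 55.1 in HT29 and of 46.8 and 56.6 in LIM1215, control and knockdown. NFKB2, of the alternative pathway, had 86.1 and 94.9 in HT29 and 42.0 and 35.0 in LIM1215. IKBKB, the kinase that marks the inhibitor for degradation, had log2 ratios of 0.20 and 0.05.

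Of 20 NF-kB feedback and co-induced genes, 19 were matched, 16 were compared and none passed 2-fold. Their medians were 0.09 in HT29 and −0.12 in LIM1215. NFKBIA, which encodes the inhibitor IkB-alpha and is itself induced by NF-kB, had an FPKM of 44.9 and 45.5 in LIM1215 and of 81.1 and 109.9 in HT29, control and knockdown. TNFAIP2 had 99.6 and 118.8 in HT29 and 18.1 and 15.3 in LIM1215, and IER3 had log2 ratios of 0.01 and −0.20. The HT29 value of IER3 was below 0 under each of the 3 other scalings. 4 more genes were chosen after their values were seen, as the lowest of the list in LIM1215. TNFAIP3, the A20 feedback enzyme, had 9.30 and 8.33 in HT29 and 6.99 and 3.30 in LIM1215, a log2 ratio of −0.89 in the latter. Without the added 1, TNFAIP3 passed 2-fold in LIM1215. IL32 had a log2 ratio of −0.59 and BIRC3 of −0.53 in LIM1215. PIGR, the transporter of polymeric IgA, was outside the filter on low values. It had 0 in both HT29 libraries and 1.98 and 0.109 in LIM1215 (−1.43). At the other end of the list, CFB had the highest log2 ratio of the compared genes in LIM1215, 0.66 (5.03 and 8.52). SAA1, outside the filter, had 0.290 and 1.43 there (0.92). In LIM1215, 7 of the 16 compared genes were above 0 and 9 below, against 7861 and 6870 of all 14803 genes.

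The mRNA decay factors did not pass 2-fold either, 0 of 7 in both lines, with medians of 0.18 in HT29 and −0.04 in LIM1215. ZFP36L1, a member of the tristetraprolin family that binds AU-rich stretches, had an FPKM of 154 and 251 in HT29 and of 106 and 153 in LIM1215, control and knockdown (log2 ratios 0.70 and 0.53). Its relative ZFP36, chosen after its values were seen, had 74.1 and 141.7 in HT29 and 83.4 and 124 in LIM1215 (0.93 and 0.57). In the fit with the line as a block, ZFP36 (mean log2 ratio 0.75, limma adjusted p = 0.04054) and ZFP36L1 (0.62, 0.04427), each higher in 2 of 2 lines, were the only calls among the 65 compared genes of the 8 lists. With a pseudocount of 0.1 neither passed (limma adjusted p = 0.0756 and 0.0768), and with 5 ZFP36L1 did not (0.05034). Over all 14803 genes compared the fit called 127 higher and 161 lower. The lists were chosen with earlier results of these data known, so nothing is read from the 2 calls. KHSRP (−0.01 and −0.13) and HNRNPD (0.07 and −0.15) had values near 0, and the HT29 value of HNRNPD was instead −0.01 with libraries scaled to equal summed FPKM.

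Among 8 sheddases and proteases that process chemokines, 6 were compared and none passed 2-fold, with medians of −0.06 in HT29 and −0.14 in LIM1215. ADAM10, a sheddase of CXCL16, had an FPKM of 100.3 and 97.9 in HT29 and of 138 and 128 in LIM1215. The lysosomal proteases had log2 ratios of 0.15 and −0.08 (CTSB) and of −0.09 and 0.02 (CTSL), and the LIM1215 value of CTSL was below 0 after centring. Of 12 cytokines, 3 were compared and none passed 2-fold. LIF stood at log2 ratios of 0.14 (HT29) and 0.19 (LIM1215), IL18 of 0.52 and −0.22, and IL11 of 0.45 and 0.22.

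**Figure D5:**
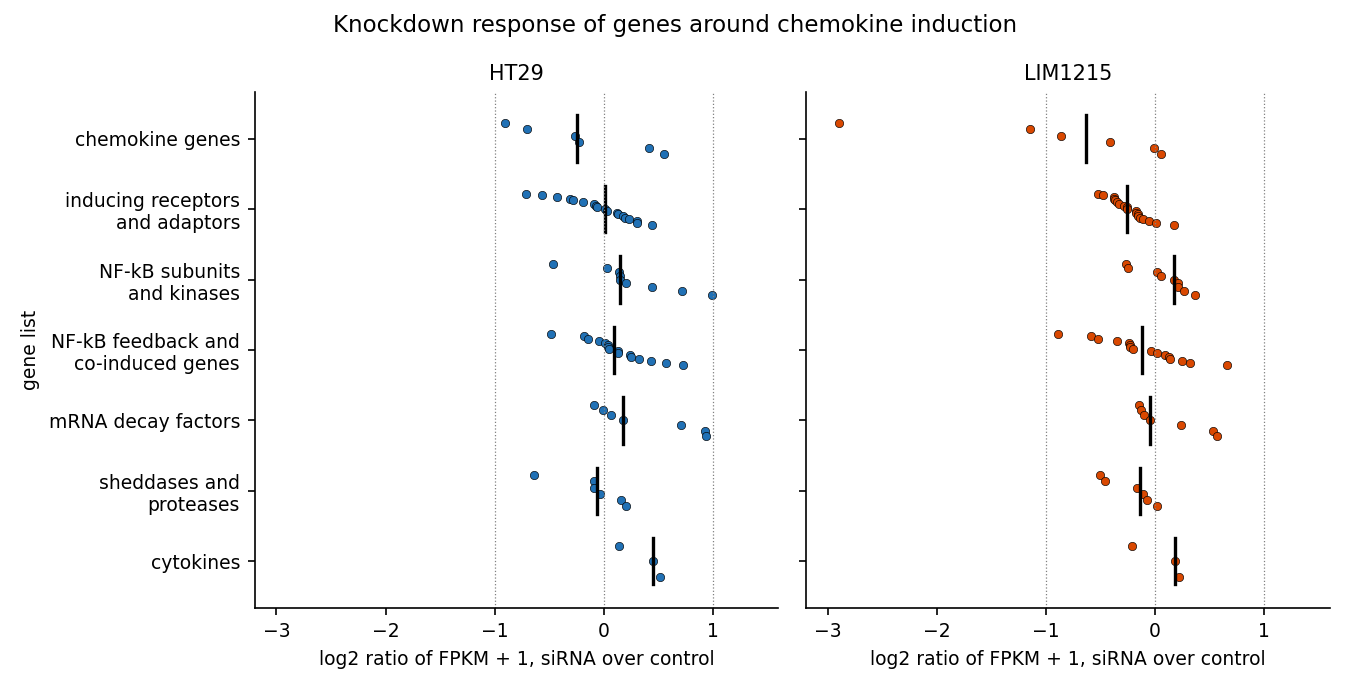
Log2 ratio of FPKM plus 1, TMEM161A siRNA over control (horizontal axis), of each compared gene in 7 gene lists (rows), HT29 left and LIM1215 right; black bars are list medians and dotted lines mark 0 and 2-fold. In LIM1215 the chemokine genes spread from −2.90 (CCL20) to 0.06, and no gene of the 6 other lists passes 2-fold of FPKM plus 1. CCL20 was chosen on this contrast, so nothing is read from a comparison of the lists.

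Genes with a pattern like that of CCL20 were sought over the 4 libraries among the 12295 coding genes, by the Euclidean distance of centred log2(FPKM + 1). The 5 nearest were ENSG00000260170 (distance 0.98), CASP5 (1.08), HHLA2 (1.25), ZNF420 (1.27) and COX6B2 (1.29), and no other chemokine was among them. CCL28, CXCL5 and PPBP, each with a mean FPKM below 1, were no candidates, so their absence was set by the filter. CASP5, HHLA2 and ZNF420, at 0 in both HT29 libraries, passed that filter through the LIM1215 libraries alone. ENSG00000260170 and COX6B2 (0.451 and 0.222 in HT29) were below an FPKM of 1 in both HT29 libraries, so they too passed it through LIM1215. CASP5, an inflammatory caspase, was listed at 0 in both HT29 libraries and at 4.03 and 0.722 in LIM1215, control and knockdown. HHLA2, an immune ligand of the B7 family, had 0 in both HT29 libraries and 5.71 and 1.90 in LIM1215. ENSG00000260170 had 0.675 and 0.611 in HT29 and 7.21 and 1.25 in LIM1215, and overlaps BLOC1S6 and SQOR on its own strand. ZNF420, a zinc finger gene, overlaps ZNF585A and had 4.63 and 1.52 in LIM1215, and COX6B2, a subunit of cytochrome c oxidase, had 4.09 and 0.259. All 5 were lower than CCL20 in the LIM1215 control, and 2 of the 5 remained among the nearest with a pseudocount of 0.1 and 1 with a pseudocount of 5.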

How the data were processed

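The authors deposited 1 table of FPKM per library. Per the submitters' processing notes, HISAT2 2.1.0, SAMtools 1.20, Cuffdiff and Cufflinks 2.2.1 were used with GRCh38; the annotation, the strand setting and filters are not given in the sources used here. Per the labels' protocols, libraries came from total RNA with a stranded mRNA kit. FPKM is relative to the other genes of its library.

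Of 60658 identifiers, 56550 matched GENCODE release 44. The measure was the log2 ratio of FPKM + 1 for the 14803 genes with a mean FPKM of at least 1, called at 2-fold without a p-value. Fold changes on this scale understate low genes. Depth was fitted by bringing low FPKM of single-transcript genes within 0.03 of whole fragments (77.9% to 79.2% of such values), and 95% intervals are exact Clopper-Pearson (ratios) or exact Poisson (levels). A limma fit of log2(FPKM + 1) on line and siRNA, added after the data were seen, pools over genes the spread of the siRNA response between the lines. The scripts were tested on simulated data. Members and lists were chosen with earlier results of these data known. Named genes were the members, their receptors, TMEM161A, the 5 genes nearest to CCL20 and, per list, those past 2-fold and the 3 highest. Python 3.11.15, pandas 2.3.3 and scipy 1.17.1, R 4.3.3 and limma 3.58.1 were used.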

Additional observations from a re-analysis of the deposited data

Results flagged for a closer look

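For 15 of the genes named by rule and detected in every library, the log2 ratio of knockdown over control had opposite signs in HT29 and LIM1215. The share of opposite signs over all genes was not computed, so nothing is read from this count. With 1 library per group none of these differences was tested. Differences are LIM1215 minus HT29.

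Among the members the difference was −3.32 for CCL20 (0.42 in HT29 and −2.90 in LIM1215), −0.57 for CXCL16 (0.55 and −0.01) and 0.28 for CXCL2 (−0.23 and 0.06). For CCL20 the HT29 interval included no difference, for CXCL16 the LIM1215 interval did, and for CXCL2 both did. Among receptors and other ligands it was −0.46 for CCR10, 0.31 for CXCR6, 0.22 for CXCR4 and 0.37 for CCL26. Each of CCR10 and CXCR6 had an FPKM below 1 in all 4 libraries, as did CCL26 in HT29.

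Among the listed genes around chemokine induction it was −0.73 for IL18, −0.48 for TNFAIP2, −0.39 for NFKB2, −0.34 for TNFRSF1A, −0.23 for CTSB, −0.22 for HNRNPD, −0.21 for IER3 and 0.11 for CTSL. The HT29 values of IER3 and HNRNPD and the LIM1215 value of CTSL were below 0 under another scaling, as given above. Their signs were then the same in both lines.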

How the results depend on the processing

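Of 29 member values (log2 ratios in 3 comparisons and their differences between the lines), 28 kept their sign under a pseudocount of 0.1 or 5, a common sum, upper quartile scaling and centring, and the exception was CXCL16 between the control libraries. CCL20 in LIM1215 had a log2 ratio of −3.32 with a pseudocount of 0.1 and −1.95 with 5, and between the controls 2.23 with 5. With a 1.5-fold threshold 2 of the 6 compared members were lower in HT29, CXCL1 and CXCL8, against 1023 of 14803 genes. In LIM1215 3 were lower at that threshold, against 915 genes. The members were chosen on the LIM1215 contrast, so nothing is read from its count. With a pseudocount of 5 no member (0) was lower in LIM1215 than in HT29 between the controls, against 353 genes. The common sum shifted the median of all genes between the controls from 0.05 to −0.11.

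Counts over all genes depended on the settings. In HT29, genes higher and lower numbered 570 and 558 with a pseudocount of 0.1, 87 and 94 with 5, 128 and 144 at a mean FPKM of at least 5, 1165 and 1023 at 1.5-fold, and 118 and 155 among coding genes alone. In LIM1215 they numbered 476 and 508, 68 and 88, 89 and 113, 982 and 915, and 93 and 109 in the same order, and 395 were higher without a filter. Between the controls they numbered 947 and 353 with a pseudocount of 5, 1107 and 563 at a mean FPKM of at least 5, and 3220 and 2409 at 1.5-fold, and the split of 1773 higher and 1099 lower became 1527 and 1516 with a common sum and 1520 and 1403 with upper quartile scaling. The paired fit, with the line as a block (limma, added after the data were seen), called 127 genes higher and 161 lower. With a pseudocount of 0.1 it called 14 and 36, and with 5 it called 91 and 116. With 1 library per group no replicate could be left out. In HT29, depth limits CCL20 and CCL28, with at most 21.7 estimated fragments per library.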
